A study of Mus musculus with 6 samples.

Results

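The 9 genes described here encode proteins that move STING between cell compartments or carry its ligands across membranes. They are Sec24c, Tmed2, Surf4, Copa, Stim1 and Npc1, which act on traffic from, to and beyond the endoplasmic reticulum (ER), and Slc19a1, Lrrc8a and Lrrc8c, which encode transporters or channel subunits that pass cyclic dinucleotides. They were chosen by name for these roles and not by a rule on their measured values, but with earlier results of these data known. All 9 were found among the 24181 genes of the count table. The series holds 6 samples of MC38, a mouse colon adenocarcinoma cell line, grown in DMEM. The labels split them into 3 parental (genotype WT) samples and 3 samples that express STING-N153S, a form of STING with 1 amino acid replaced, and the series asks how these groups differ. Only the parental samples, replicates 1 to 3, were analysed here, because no label ties single columns of the table to the STING-N153S samples, so no effect of STING-N153S is reported. The labels name no agent added to the parental cells. The deposited annotation names the parental libraries BR with a number, read here as biological replicate. It does not say whether they were separate cultures, so the spread between them may be technical. MC38 is 1 line, and the values speak only for that line.

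STING is a membrane protein of the ER that binds cyclic dinucleotides, either the cGAMP made by cGAS on cytosolic DNA or bacterial second messengers. Once bound, it leaves the ER in COPII-coated vesicles, signals from the Golgi and the vesicles beyond it, and is then broken down in lysosomes. COPI-coated vesicles carry it back to the ER, while STIM1 holds it there at rest. Extracellular cyclic dinucleotides enter cells through solute carriers and through LRRC8 channels, and the importer used differs between cell types.

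The 3 parental libraries held 3358908, 4020023 and 3210024 counts. Levels below are CPM, the count of a gene as parts of 1000000 counts of its library. Because the protocol amplifies fragments from the 3' end of each cDNA, CPM of different genes were compared without dividing by transcript length, and a gene whose 3' ends are poorly captured or annotated would be undercounted. Of 10 listed markers of intestinal epithelium only 4 were in the count table, and these were at or near 0. Krt8, Krt19 and Vil1 had 1 count each over the 3 libraries and Cdx1 had 0. Of 7 mesenchymal markers, 5 reached a mean of 1 CPM, and the list summed to 3581 to 3979 CPM. Their means ran from 0.667 CPM for Pdgfrb, 0.991 for Col1a2 and 3.58 for Col1a1 up to 3058 CPM for Vim, which took most of that sum and itself varied between the libraries (2907, 3014 and 3251 CPM, chi-square adjusted p = 5.9e-12). Of 8 myeloid, lymphocyte and endothelial markers analysed, none reached a mean of 1 CPM. Only 1 of the 4 listed lymphocyte markers was in the count table.

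Genes for traffic between the ER and the Golgi held both the highest and some of the lowest levels of the 9. Tmed2 encodes a p24 protein that cycles between these compartments and helps to sort cargo, and the p24 family has been tied to the localisation of STING. It stood at 249, 247 and 255 CPM in replicates 1 to 3, from 838, 991 and 820 counts, with a mean of 250.5 ± 4.55 CPM (SD, n = 3). The replicates lay within 1.04-fold of each other. Surf4, a cargo receptor that returns STING to the ER with the COPI coat, had 197, 216 and 204 CPM and a mean of 206 ± 9.66 CPM (SD, n = 3). The levels of Tmed2 and Surf4 were close but did not overlap, with Tmed2 above Surf4 in 3 of 3 libraries and a mean ratio of 1.22 ± 0.069 between them (SD, n = 3).

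Copa, the alpha subunit of the COPI coat and the gene mutated in COPA syndrome, an inherited disease with raised interferon signalling, had 53.6, 62.4 and 56.7 CPM (180, 251 and 182 counts). Its mean was 57.6 ± 4.49 CPM (SD, n = 3). Sec24c, a cargo-binding subunit of the COPII coat that takes part in the exit of STING from the ER, had 9.23, 7.21 and 8.10 CPM, from 31, 29 and 26 counts. The mean of Sec24c was 8.18 ± 1.01 CPM (SD, n = 3). In each library Copa was counted above Sec24c, and the Copa to Sec24c ratio ran from 5.81 in replicate 1 to 8.66 in replicate 2. This compares 1 subunit of each coat, not the coats. Among other COPII subunits, Sec13 with a mean of 290 CPM lay above Copa and Sec23a with 9.55 CPM below it. The pooled Copa to Sec24c ratio of 7.13 had an exact (Clopper-Pearson) 95% interval of 5.68 to 9.04. Like the other intervals here, it covers counting error only.

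Stim1 encodes the ER calcium sensor that opens store-operated calcium channels and retains STING in the ER. Its 13.1, 12.2 and 11.8 CPM (44, 49 and 38 counts) gave a mean of 12.4 ± 0.65 CPM (SD, n = 3), the smallest SD in CPM of the 9 genes. That spread of 5.26% of the mean was below the 15.1% that counting error alone gives at this depth. Sting1 itself, with 11.3, 10.9 and 14.6 CPM, lay in the same range. Npc1, the lysosomal membrane protein that exports cholesterol and has been described as a cofactor that brings STING to lysosomes for degradation, was the lowest of the 9. It had 4.17, 4.48 and 2.80 CPM from 14, 18 and 9 counts, with a mean of 3.82 ± 0.89 CPM (SD, n = 3). All 3 values were above the floor of 3 counts, which is 0.893, 0.746 and 0.935 CPM in the 3 libraries. The exact Poisson 95% interval of the pooled Npc1 level ran from 2.78 to 5.25 CPM.

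Among the cyclic dinucleotide transport genes, Slc19a1 was the highest. It encodes the reduced folate carrier, which also imports cyclic dinucleotides. It had 90.8, 87.6 and 91.9 CPM and a mean of 90.1 ± 2.26 CPM (SD, n = 3). Lrrc8c, a subunit that gives LRRC8 volume-regulated anion channels their permeability to cGAMP, had 24.4, 28.9 and 14.95 CPM (82, 116 and 48 counts). Replicate 3 was the low one, and the mean was 22.7 ± 7.10 CPM (SD, n = 3). Lrrc8a, the subunit that every functional LRRC8 channel needs, had 7.44, 10.9 and 7.17 CPM (25, 44 and 23 counts), with replicate 2 the highest and a mean of 8.52 ± 2.11 CPM (SD, n = 3). The count of Lrrc8c exceeded that of Lrrc8a in every library, by 3.28, 2.64 and 2.09 times, and the pooled ratio of 2.67 had an exact 95% interval of 2.10 to 3.44.

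**Figure D1:**
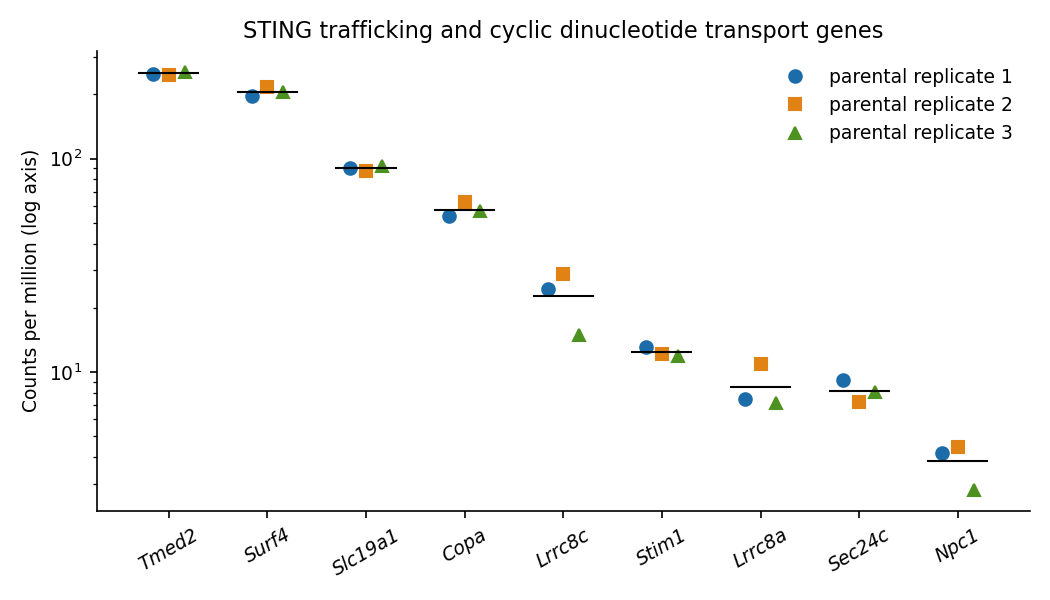
Level of each of the 9 genes in the 3 parental libraries, in CPM on a log axis, with the mean over libraries as a horizontal line. Tmed2 at 247 to 255 CPM stands at the top and Npc1 at 2.80 to 4.48 CPM at the bottom, and replicate 3 of Lrrc8c lies below the other 2 libraries.

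In order of mean level the genes ran Tmed2, Surf4, Slc19a1, Copa, Lrrc8c, Stim1, Lrrc8a, Sec24c and Npc1, and the highest and lowest differed by 68.7 ± 19.6 times within a library (SD, n = 3). Of the 8 pairs of neighbours in that order, 7 did not overlap between libraries. Lrrc8a and Sec24c overlapped, and their pooled ratio of 1.07 had an exact 95% interval of 0.789 to 1.45, so their order was not resolved at this depth. The interval for Stim1 over Lrrc8a, 1.08 to 1.88, came nearest to 1 among the other neighbours. On average all 9 genes reached 1 CPM, 6 reached 10 CPM and 2 reached 100 CPM, and their median was 22.7 CPM. Among all 24181 genes, 11964 reached 1 CPM, 7553 reached 10 CPM and 2064 reached 100 CPM. Tmed2 was above 96.7% of all genes and Npc1 above 60.5%.

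The 3 parental libraries were compared with each other by a chi-square test of counts, fitted over all genes whose expected count was 5 or more in every library. This compares libraries, not conditions. Of the 9 genes 1 varied beyond counting noise, where the test called 2.80% of the 11118 genes tested (311 genes) at a false discovery rate of 0.05. That gene was Lrrc8c, whose highest library was 1.93-fold above its lowest (chi-square test, Benjamini-Hochberg adjusted p = 0.0268, unadjusted p = 0.000583). In bulk RNA a lower level in every cell and a loss from some cells cannot be told apart. The adjusted p of the other 8 ran from 0.59 for Lrrc8a to 0.967 for Stim1. The median ratio of the chi-square value to its degrees of freedom was 0.692 over the 9 genes and 0.934 over all genes tested, where counting error alone gives a median of 0.693.

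The Lrrc8c call rested on replicates 2 and 3 and was lost without either. Without replicate 3 the adjusted p was 0.843, and replicate 1 stood at 0.846 times replicate 2. Without replicate 2 the adjusted p was 0.111, with replicate 1 at 1.63 times replicate 3. Without replicate 1 it was 0.00993, with replicate 2 at 1.93 times replicate 3. Replicate 3 was also the farthest from the other 2 in 195 of the 311 varying genes of the whole table, and its part in the Lrrc8c result was not tested. Lrrc8c had the largest spread of the 9 relative to its mean, 31.2% against 11.0% from counting error, followed by Lrrc8a with 24.7% against 18.1%, which did not pass the test.

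**Figure D2:**
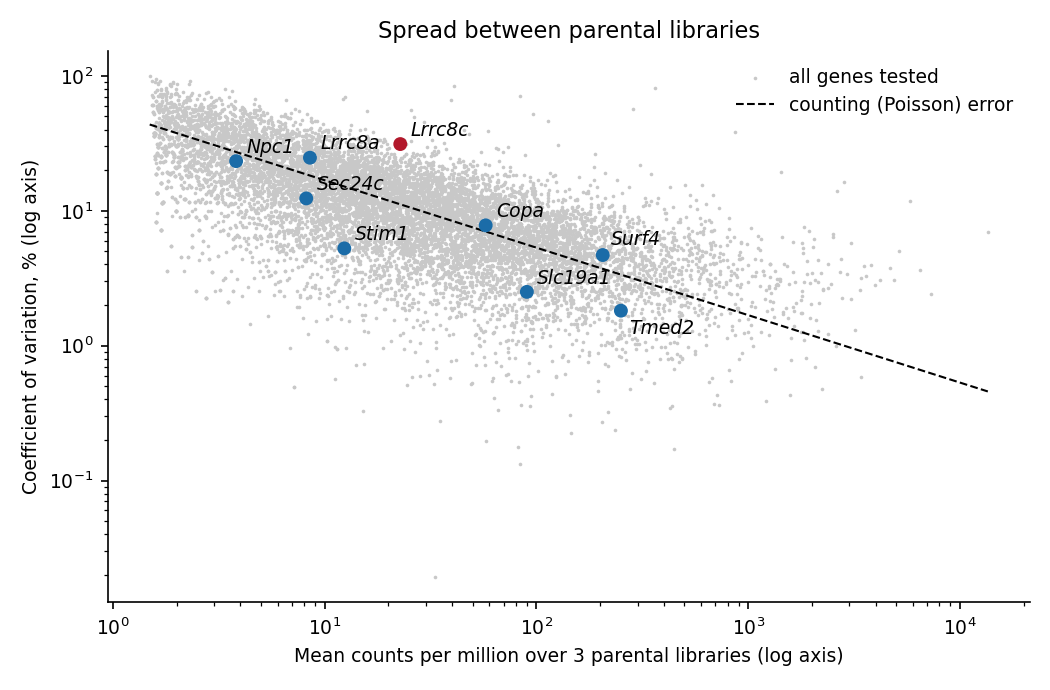
Coefficient of variation between the 3 parental libraries in percent against mean CPM, both on log axes, for the 11118 genes tested (grey) and the 9 genes described here (labelled; red for the 1 that varied, blue for the others). The dashed line is the variation that counting error alone gives at the mean depth. Lrrc8c, at 31.2%, lies well above the line, and Stim1, at 5.26%, lies below it.

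The LRRC8 family was set out in full, since these channels are built from Lrrc8a together with 1 or more other subunits. Lrrc8c led the family in 3 of 3 libraries and took 48.5%, 47.3% and 37.2% of its summed counts in replicates 1 to 3. The exact 95% intervals of the first 2 shares ran from 40.8% to 56.3% and from 41.0% to 53.8%, and that of replicate 3 from 28.9% to 46.2%, so the 3 intervals overlap. Lrrc8d followed with 10.6 ± 1.53 CPM, then Lrrc8a, Lrrc8b with 6.42 ± 1.78 CPM and Lrrc8e with 2.21 ± 0.54 CPM (SD, n = 3). Lrrc8d favours the passage of organic osmolytes, and Lrrc8e forms a further cGAMP-permeable channel with Lrrc8a. The share of Lrrc8a was 14.8%, 17.96% and 17.8%. The 5 subunits summed to 50.3, 60.9 and 40.2 CPM. With Lrrc8c left out they summed to 25.9, 32.1 and 25.2 CPM, with replicate 3 beside replicate 1. Lrrc8c was left out with its low replicate 3 known. Lrrc8b (7.44, 7.46 and 4.36 CPM) and Lrrc8a were also lowest in replicate 3, while Lrrc8d and Lrrc8e were not. None of the other 4 subunits passed the test, on 23 to 113 counts each.

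The promoters of these paired subunits are shown because Lrrc8a and Lrrc8c contribute to the same channel yet differed in level. Whether promoter sequence relates to the level or the spread of either gene was not tested. Each window holds 300 bases around the annotated start in RefSeq on GRCm38.p6, mostly upstream of it, on the + strand, at chr2:30237519-30237818 for Lrrc8a and chr5:105519221-105519520 for Lrrc8c. Capitals mark matches to the motifs named below, on either strand.
Lrrc8a: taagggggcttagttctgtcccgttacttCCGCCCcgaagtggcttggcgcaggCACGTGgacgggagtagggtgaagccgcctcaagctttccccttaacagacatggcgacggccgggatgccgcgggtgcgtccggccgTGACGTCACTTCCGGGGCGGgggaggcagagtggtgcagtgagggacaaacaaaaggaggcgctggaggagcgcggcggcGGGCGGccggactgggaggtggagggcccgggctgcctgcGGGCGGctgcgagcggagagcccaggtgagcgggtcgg
Lrrc8c: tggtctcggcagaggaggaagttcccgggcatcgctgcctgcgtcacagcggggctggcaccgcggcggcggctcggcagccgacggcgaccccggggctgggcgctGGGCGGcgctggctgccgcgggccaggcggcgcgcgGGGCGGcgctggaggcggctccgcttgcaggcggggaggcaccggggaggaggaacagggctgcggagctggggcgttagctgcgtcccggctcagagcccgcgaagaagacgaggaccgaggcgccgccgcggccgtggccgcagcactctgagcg
The Lrrc8a window held 4 GC boxes (GGGCGG), 1 cAMP response element (TGACGTCA), 1 ETS site (CCGGAAGT) that overlaps this element and a GC box, and 1 E-box (CACGTG). The Lrrc8c window held 2 GC boxes and none of the others, with 78.0% G and C and 44 CG dinucleotides against 70.0% and 32 in Lrrc8a. Over all 32851 promoter windows the median was 52.7% G and C with 7 CG dinucleotides. A GC box lay in 35.7% of them, a cAMP response element in 1.79%, an ETS site in 3.89% and an E-box in 7.15%.

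Promoter windows were matched for 7 of the 9 genes, Slc19a1 with 2 windows, and each of these 7 had a GC box in at least 1 window. Sec24c also held 2 ETS sites. Motifs of the unfolded protein response, which raises many ER export genes, were in none of the 8 windows: the ER stress response element (found in 0.119% of all windows) and the unfolded protein response element (TGACGTGG, 0.676%). The same held for the NF-kB site (0.155% of all windows), the interferon response core (3.44%), the CLEAR element of lysosomal genes (0.326%), which contains the E-box, and the AP-1 site (TGAGTCA, 5.20%). CCAAT (37.4%), TATAAA (13.6%), the NRF1 site (0.971%) and the YY1 site (0.633%) were not found either. These matches describe letters in a window and no binding was measured.

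Sec24c was the lowest of its paralogs by its mean. The 4 SEC24 proteins each bind their own set of cargo in the COPII coat, and Sec24c held 11.0%, 9.18% and 11.4% of their summed counts. Sec24d led with 34.0 ± 4.14 CPM, ahead of Sec24b with 25.6 ± 2.61 CPM and Sec24a with 10.2 ± 1.45 CPM (SD, n = 3). Sec24d exceeded Sec24c by 3.74, 5.24 and 3.65 times in replicates 1 to 3, with an exact 95% interval of 3.33 to 5.40 for the pooled ratio. Sec24a and Sec24c, the lowest pair, were closer. Sec24a had 11.9, 9.45 and 9.35 CPM against 9.23, 7.21 and 8.10 CPM for Sec24c. The lowest library of Sec24a stood just above the highest library of Sec24c. The exact 95% intervals of their shares overlapped in each library, with 10.3% to 18.7% against 7.57% to 15.2% in replicate 1.

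Copa was among the lower of the 9 coatomer genes, level with Copz2 and above Copg2. It took 5.80%, 6.91% and 6.30% of the summed coatomer counts. Cope, the epsilon subunit, led with 255 ± 14.5 CPM, followed by Copz1 with 146 ± 4.56 CPM, and Copb1, Copb2 and Arcn1 lay between 102 and 105 CPM on average. Copz2, a zeta isoform, had 58.1, 54.7 and 59.8 CPM, above Copa in replicates 1 and 3 and below it in replicate 2, and Copg2, a gamma isoform, had 7.09 ± 1.69 CPM (SD, n = 3). The ratio of Cope to Copa was 4.77, 3.86 and 4.76. The coatomer sum varied little, at 924, 903 and 901 CPM.

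Tmed2 was the highest of the 9 p24 genes by its mean and took 21.3%, 20.6% and 20.9% of their summed counts. Tmed9 was next with 217, 250 and 223 CPM, and in replicate 2 it exceeded Tmed2 by 1004 to 991 counts, so these 2 genes overlapped. Tmed10, the usual partner of Tmed2 in p24 complexes, had 150.2 ± 10.8 CPM (SD, n = 3), and Tmed2 exceeded it by 1.74, 1.70 and 1.57 times. Tmed8 was the lowest with 2.89 ± 2.02 CPM, from 12, 18 and 2 counts. No p24 gene passed the test of variation.

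Stim1 stood below its paralog Stim2, which senses smaller falls in ER calcium, in 3 of 3 libraries. Stim2 had 24.4, 19.9 and 31.2 CPM, and the Stim2 to Stim1 ratio was 1.86, 1.63 and 2.63, with an exact 95% interval of 1.62 to 2.49 for the pooled ratio of 2.00. Npc1 stood far below Npc2, the soluble lysosomal protein that hands cholesterol to it. Npc2 had 162, 165 and 163 CPM, and the Npc2 to Npc1 ratio was 38.8, 36.8 and 58.2.

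Other genes of the same routes were counted from 12 lists, of whose 110 genes 105 were analysed. On average 101 of these reached 1 CPM and 40 reached 100 CPM, and 3 of the 100 tested varied between the parental libraries, beside the 2.80% of all genes. The median level over the 105 genes was 59.9 CPM. Beyond the families above, the COPII list was led by the coat subunit Sec13, with 290.3 ± 3.71 CPM, and the GTPase Sar1a, with 199 ± 4.10 CPM (SD, n = 3), far above Sec24c. In the COPI list the GTPases Arf1 and Arf4, which recruit the coat, had 424 ± 19.6 and 316 ± 13.4 CPM (SD, n = 3). The KDEL receptor Kdelr2, which retrieves ER residents, had 634 ± 23.1 CPM and Ergic1, of the ER-Golgi intermediate compartment, 243 ± 5.78 CPM (SD, n = 3), both above Surf4. Of the translocon partners, Ssr2 had 516 ± 10.8 CPM and Sec61b 129 ± 5.67 CPM (SD, n = 3).

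Stim1 lay below the highest genes of its list, Tmco1, an ER calcium leak channel, with 229 ± 13.4 CPM, and Saraf, an inhibitor of store-operated entry, with 159 ± 1.34 CPM (SD, n = 3). All 7 listed genes of lysosomal cholesterol and lysosomal membranes were above Npc1, led by Lamp1 with 581 ± 32.5 CPM and the protease Ctsd with 213 ± 9.15 CPM (SD, n = 3). The palmitoyltransferases that modify STING at the Golgi were counted at 63.7 ± 8.33 CPM for Zdhhc3 and 29.9 ± 4.50 CPM for Zdhhc7 (SD, n = 3), while Zdhhc15 had 1 count in all. In post-Golgi sorting, the clathrin adaptor subunit Ap1s1 had 327 ± 15.1 CPM and the late endosomal GTPase Rab7 211 ± 4.01 CPM (SD, n = 3).

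Other routes for cyclic dinucleotides ranged widely around Slc19a1. Gja1, the gap junction protein through which cGAMP passes between cells in contact, had 192, 192 and 158 CPM and exceeded Slc19a1 in 3 of 3 libraries, by 2.11, 2.19 and 1.72 times. Abcc1, an exporter of cGAMP, had 25.6 ± 1.41 CPM and Slc46a1, the proton-coupled folate carrier, 9.22 ± 1.33 CPM (SD, n = 3). Slc19a1 exceeded Slc46a1 by 8.47, 10.7 and 10.5 times. Slc15a3 and P2rx7 had 6 and 5 counts over the 3 libraries, while Slc15a4 had 19.3 ± 0.51 CPM (SD, n = 3). Of the 11 listed import and export genes 9 were in the count table, without Slc46a2 and Slc46a3. Of the 4 listed hydrolases only 2 were in the count table. Smpdl3b had 3.40 ± 0.69 CPM (SD, n = 3). Enpp1 was at 0 counts, where the floor of 3 counts is 0.283 CPM over the pooled libraries.

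The 3 listed genes that varied were Sec31a, Chmp4b and Gja1. Sec31a, a COPII coat subunit, had 84.8, 105 and 72.6 CPM (chi-square test, Benjamini-Hochberg adjusted p = 0.00266), lowest in replicate 3 as Lrrc8c was, and it did not pass without replicate 3 (0.367) or without replicate 2 (0.372). Gja1 was lowest in replicate 3 (adjusted p = 0.0391) and did not pass without it (0.987). Chmp4b, an ESCRT subunit, was highest in replicate 2, with 124, 155 and 131 CPM (adjusted p = 0.046), and it did not pass when any 1 library was left out (adjusted p 0.0849 to 0.933).

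**Figure D3:**
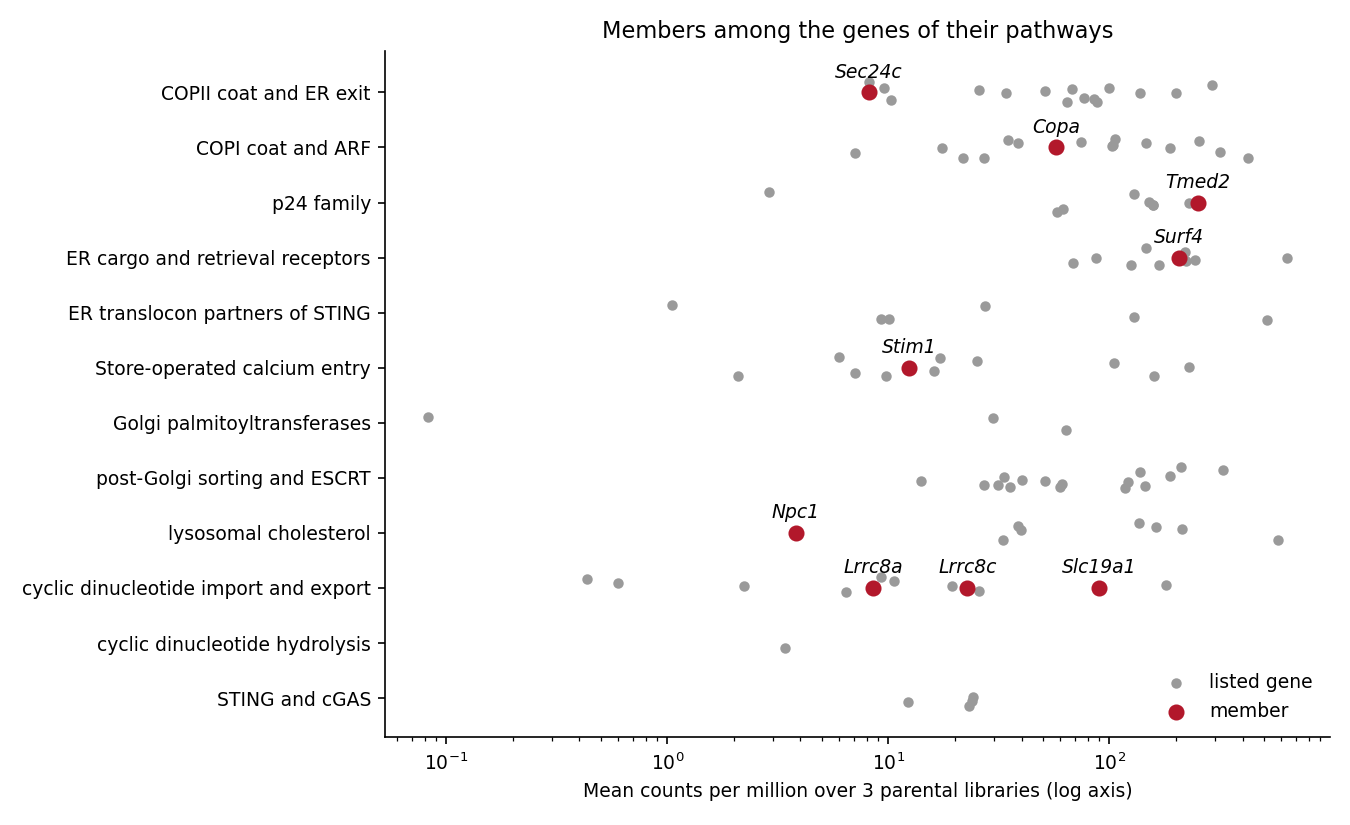
Mean CPM over 3 parental libraries, on a log axis, of the genes of 12 lists (grey) and of the 9 genes described here (red, labelled) placed in the list nearest to their role; points are spread vertically for sight only, and Enpp1, at 0 counts, is not drawn. Sec24c and Npc1 lie at the low end of their rows, and Tmed2 at the high end of its row.

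Gene positions were taken from GENCODE M21 on GRCm38, the build of the count table, which itself used release M25. Tmed2 lies at chr5:124540695-124550506 and Lrrc8c at chr5:105519388-105613018, both on the + strand, and Copa at chr1:172082529-172122330 (+). Surf4 lies at chr2:26920040-26933928 (-), Lrrc8a at chr2:30237715-30263790 (+), Stim1 at chr7:102267806-102437319 (+), Slc19a1 at chr10:77032241-77061002 (+), Sec24c at chr14:20674308-20694852 (+) and Npc1 at chr18:12189692-12236400 (-). The 3' end, which this assay reads, lay inside another annotated gene on the opposite strand for 4 of them. Surf4 ran 144 bases into Surf2, which had 244, 264 and 219 counts, and Npc1 ran 967 bases into Rmc1, with 110, 152 and 86 counts against 14, 18 and 9 for Npc1. Sec24c overlapped the antisense gene 6230400D17Rik (8, 6 and 10 counts), and Slc19a1 overlapped Col18a1 (3, 11 and 2 counts). The 3' end of Lrrc8a lay inside Gm28035 on the same strand, which was not analysed here. The sources used here do not give whether counting used the strand or what was done with reads that match 2 genes, so the levels of these 5 genes are uncertain to that extent.

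Sharing of sequence with other genes was then checked at the 3' ends. In the last 500 bases of 1 coding transcript per gene, each stretch of 50 bases was looked for in the transcripts of all other genes. Only the same orientation was searched. Overlap with a gene on the opposite strand, as for Surf4, Npc1, Sec24c and Slc19a1, could therefore not be found. For 8 of the 9 genes, Lrrc8a and Lrrc8c among them, 0 of 451 stretches were shared, and for Tmed2 3 of 451 (0.665%) were shared with Rxylt1. A canonical polyadenylation signal (AATAAA) began within the last 50 bases of these transcripts for 8 genes, and the Slc19a1 transcript held none there.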

How the data were processed

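The authors deposited raw counts per gene. Per the file headers, untrimmed reads were aligned to GRCm38 with STAR 2.7.5b, the gene models were GENCODE M25, and Drop-seq tools 1.12 and Picard 2.18.26 were part of the pipeline. The sources used here do not give whether molecular identifiers were collapsed. If they were not, amplification adds to the spread. Intervals and floors cover counting error only. The 3 columns annotated as wild type carry replicate numbers and were taken as parental replicates 1 to 3 on that basis. The other 6 columns form 2 sets of 3, more than the 3 STING-N153S samples, so none was used, and the planned edgeR comparison was not run.

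Counts were divided by library totals to give CPM. The chi-square test used expected counts from library sizes scaled by median ratios. It was tested on simulated data whose only noise was counting error, so its false discovery rate under wider spread was not checked. Ratios and shares have exact (Clopper-Pearson) 95% intervals, and pooled levels exact Poisson ones. The floor is 3 counts. Alternatives used scaling factors from edgeR 4.0.16 (TMM, upper quartile) and DESeq2 1.42.0 in R 4.3.3. Other tools were Python 3.11.15, scipy 1.17.1 and pandas 2.3.3.

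The members and the gene lists were chosen with earlier results of these data known. Named genes were the 9 members, the 2 highest of each list, relatives of the members (Lrrc8b, Lrrc8d, Lrrc8e, Sec24a, Sec24b, Sec24d, Stim2, Npc2, Tmed10), Sting1 and Cgas. Cgas had 24.1 ± 2.51 CPM and Irf3, next to it in the STING and cGAS list, 23.9 ± 2.87 CPM (SD, n = 3). Tmed5, next to Tmed9 in the p24 list, had 158 ± 10.9 CPM (SD, n = 3). Other genes were named after their values were seen, as were the 14 promoter motifs. With 3 libraries no likeness of pattern between genes was computed.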

Additional observations from a re-analysis of the deposited data

How the results depend on the processing

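Leaving out 1 library gave 0 to 1 of the 9 genes varying between parental libraries. The number was 0 without replicate 2 and 0 without replicate 3, where Lrrc8c had an adjusted p of 0.111 and 0.843, and a test on 2 libraries has less power. Under TMM, upper quartile or total scaling, another minimum expected count (1 or 20) or pairwise exact binomial tests the number stayed at 1, Lrrc8c in each case, with an adjusted p between 0.017 and 0.0344. Chmp4b was not called with upper quartile scaling, a minimum expected count of 1 or pairwise tests, nor was Gja1 with the last 2. All of these settings take counting error as the only noise, so none tested the calls against a wider spread between libraries. Of 54 levels of members under other settings 49 stayed within 1 SD. The other 5 (Tmed2, Surf4, Copa, Stim1 and Slc19a1) came from totals without the 20 highest genes, a scaling that raises every remaining gene. All 48 ratios of genes under other settings moved by less than 1 SD. For levels and ratios alike, leaving out 1 of 3 libraries cannot move a mean by 1 SD, so those settings tested nothing here. The ratio of summed counts is a weighted mean of the same 3 library ratios. Without 1 library the mean of Lrrc8c ran from 19.7 to 26.6 CPM. The settings planned for the comparison with STING-N153S were not run. No paired analysis was possible because the STING-N153S samples have no matched columns. Depth limits Npc1 most, with 41 counts over the 3 libraries.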
